A study of Mus musculus with 18 samples.

Results

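Lamin B1 domains and H3K9me3 regions of young mouse liver were set against each other on a common grid of 10 kb windows. The members were all regions of both young lists on chromosomes 1 to 19, which gave 1621 lamin B1 domains and 2781 H3K9me3 regions, together 4402 of the 21560 regions in 6 lists of the series. Each of 239597 windows with at least 5000 known bases fell into 1 of 4 classes, namely both marks, lamin B1 only, H3K9me3 only or neither. The study profiled lamin B1 and H3K9me3 by ChIP-Seq in livers of C57BL/6 male mice at 3 months (young) and 21 months (old), all wild type, and Foxa2 at 12 weeks, from which the wild-type list is used here. Each young list merged 2 replicates, so a region is present or absent, with no level, no value per mouse and no spread between animals. The chromatin came from whole liver, which holds hepatocytes and other cell types, and lists of positions cannot show marker levels of any of them. Because no replicate could be set against another, no comparison below has a test. Shares carry 95% Wilson intervals that cover counting error only, and these are too narrow because neighbouring windows of a region were called together. Comparisons of the window classes also give the number of the 19 autosomes with the same direction. The deposited young H3K9me3 list holds fewer regions than the study counts for that condition, so windows and domains said to lack H3K9me3 lack a region of this list only, and every overlap below holds for it alone.

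Lamin B1 is a filament protein of the nuclear lamina, the mesh beneath the inner nuclear membrane. Lamina-associated domains are long stretches of chromatin that touch this mesh, and in cultured cells they are known to be poor in genes and rich in A and T. H3K9me3, trimethylation of lysine 9 of histone H3, marks silent heterochromatin, is bound by HP1 proteins, and is laid over clusters of KRAB zinc finger genes by the corepressor Trim28 and the methyltransferase Setdb1. Both features are commonly linked to repressed chromatin at the nuclear edge.

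The upstream sequences of 7 genes are shown as examples of the DNA before gene starts in the 4 classes. They are the 250 bases before the RefSeq start site on GRCm38.p6, written along the strand of the gene, with every CG dinucleotide in capitals. These genes were picked after their CG counts were known, from the genes of the longest runs, the gene panel and the zinc finger stretch described below. Foxa3 (chr7:19023540-19023789, minus strand), a forkhead factor of hepatocytes, and Cltc (chr11:86757568-86757817, minus strand), the heavy chain of clathrin, start in windows with lamin B1 only and have 18 and 22 CG. Gpr180 (chr14:118136877-118137126, plus strand), which encodes a membrane protein, lies in the longest run with both marks and has 23 CG. Zfp985 (chr4:147553027-147553276, plus strand), a zinc finger gene, also starts in a window with both marks and has 5 CG. Ttll7 (chr3:146852117-146852366, plus strand), a tubulin polyglutamylase gene, and Tnni3k (chr3:155055408-155055657, minus strand), a cardiac kinase gene, lie in the 2 longest runs with H3K9me3 only and have 9 and 2 CG. Alb (chr5:90460620-90460869, plus strand), which encodes serum albumin, starts in a window with neither mark and has 2 CG. Single genes do not stand for their class, since Fasn, with neither mark, has 33 CG and Kdm4c, with lamin B1 only, has 0.
Foxa3: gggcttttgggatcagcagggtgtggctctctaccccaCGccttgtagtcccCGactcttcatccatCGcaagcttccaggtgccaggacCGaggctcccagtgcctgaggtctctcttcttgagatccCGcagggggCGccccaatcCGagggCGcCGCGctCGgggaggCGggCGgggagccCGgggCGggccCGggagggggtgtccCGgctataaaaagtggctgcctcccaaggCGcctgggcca
Cltc: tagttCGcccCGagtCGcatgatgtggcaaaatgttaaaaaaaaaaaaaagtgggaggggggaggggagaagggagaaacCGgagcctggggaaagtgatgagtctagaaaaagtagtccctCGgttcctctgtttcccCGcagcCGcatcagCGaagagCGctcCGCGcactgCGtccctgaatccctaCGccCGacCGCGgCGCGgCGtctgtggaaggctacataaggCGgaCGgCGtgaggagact
Gpr180: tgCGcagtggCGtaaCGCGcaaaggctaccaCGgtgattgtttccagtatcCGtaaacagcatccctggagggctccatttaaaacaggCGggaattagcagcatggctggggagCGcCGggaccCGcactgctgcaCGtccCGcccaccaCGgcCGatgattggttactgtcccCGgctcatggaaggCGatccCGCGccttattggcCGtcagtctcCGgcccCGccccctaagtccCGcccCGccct
Zfp985: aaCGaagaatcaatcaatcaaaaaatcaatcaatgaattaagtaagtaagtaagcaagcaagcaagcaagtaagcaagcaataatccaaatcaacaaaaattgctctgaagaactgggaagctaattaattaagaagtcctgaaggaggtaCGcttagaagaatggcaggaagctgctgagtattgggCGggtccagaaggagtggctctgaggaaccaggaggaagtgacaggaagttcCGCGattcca
Ttll7: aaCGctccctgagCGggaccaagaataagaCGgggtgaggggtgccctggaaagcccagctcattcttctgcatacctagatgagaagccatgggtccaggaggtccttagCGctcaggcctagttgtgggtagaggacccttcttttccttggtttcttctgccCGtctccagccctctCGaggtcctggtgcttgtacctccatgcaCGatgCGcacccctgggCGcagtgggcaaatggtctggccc
Tnni3k: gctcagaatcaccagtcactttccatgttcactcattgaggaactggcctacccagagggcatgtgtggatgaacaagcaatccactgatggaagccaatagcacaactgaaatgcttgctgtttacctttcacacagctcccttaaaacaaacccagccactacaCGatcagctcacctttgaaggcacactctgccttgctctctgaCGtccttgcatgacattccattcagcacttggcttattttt
Alb: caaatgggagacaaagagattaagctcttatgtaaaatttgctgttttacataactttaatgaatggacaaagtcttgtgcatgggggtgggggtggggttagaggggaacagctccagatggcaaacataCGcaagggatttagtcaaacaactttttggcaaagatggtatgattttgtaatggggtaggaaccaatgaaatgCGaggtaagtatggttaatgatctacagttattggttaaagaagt

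The same count over the whole RefSeq promoter table (300 bases, from 250 before to 50 after the start) ordered the classes. A promoter was called CpG-rich where its GC content was at least 50% and its observed CG count at least 0.6 of that expected from its C and G. Of 9113 promoters in lamin B1 only windows 51.1% were CpG-rich (95% interval 50.1 to 52.2), compared with 35.9% of 1700 in windows with both marks, 27.8% of 17094 in windows with neither and 18.99% of 3454 in H3K9me3 only windows. Over all 31361 promoters the share was 34.1%. The median CG count was 16 in lamin B1 only windows, 9 with both marks and 5 in each of the other classes. Promoters under lamin B1 alone were thus the richest in CG and those under H3K9me3 alone were the poorest by share.

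Lamin B1 covered 19.5% of windows and H3K9me3 24.0%, and 4.68% (11224 windows) held both. A further 35389 windows (14.8%) held lamin B1 only, 46327 (19.3%) H3K9me3 only and 146657 (61.2%) neither. H3K9me3 was present in 24.1% of windows with lamin B1 (interval 23.7 to 24.5) and in 24.0% of windows without it (23.8 to 24.2), a difference of 0.07 percentage points. If the shares of both marks are simply multiplied, 11196 windows would hold both. Across the autosomes, young lamin B1 windows therefore held H3K9me3 about as often as the rest of the autosomes did.

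The equality over all autosomes hid differences between them. H3K9me3 was more frequent with lamin B1 than without it on 14 of 19 autosomes, and the difference ranged from -10.7 points on chromosome 4 (15.4% against 26.1%) to 7.85 points on chromosome 13 (36.5% against 28.6%), with an SD of 4.53 points. On 7 autosomes it exceeded 5 points in either direction. Chromosomes 3 and 5, like chromosome 4, had less H3K9me3 with lamin B1, by -5.26 and -5.62 points, while chromosomes 6, 8 and 15 had more, by 6.81, 5.02 and 6.19 points. The level of H3K9me3 itself ranged more widely, from 3.50% of windows on chromosome 19 to 43.4% on chromosome 10. Lamin B1 ranged from 14.7% on chromosome 6 to 32.8% on chromosome 11.

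**Figure D1:**
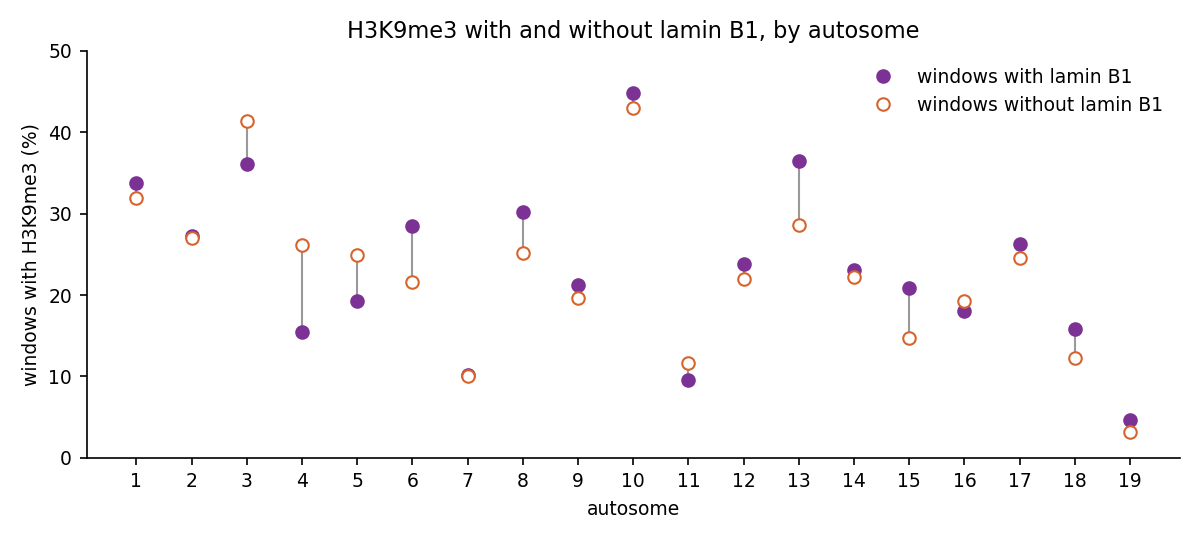
Percentage of 10 kb windows with H3K9me3 (y axis) on each autosome (x axis), for windows with lamin B1 (filled) and without it (open), from merged lists with no replicate error. The filled point lies above the open one on 14 of 19 autosomes, and the widest gap, on chromosome 4, runs the other way.

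The 4 classes differed in base composition. The median GC content was 44.3% in lamin B1 only windows (quartiles 41.4 and 47.4), 42.5% in windows with both marks (39.6 and 45.1), 41.2% with neither (38.7 and 44.4) and 39.7% with H3K9me3 only (37.4 and 42.8). Lamin B1 only windows were richer in GC than windows with neither on 19 of 19 autosomes and richer than windows with both marks on 17. H3K9me3 only windows were below those with neither on 15. The quartiles of the classes overlapped, so GC content alone does not separate them. The observed over expected ratio of CG followed the same order, with medians of 0.209, 0.196, 0.167 and 0.156. Soft-masked repeats made up a median of 30.7% of H3K9me3 only windows and of 27.9% to 28.5% of windows in the other classes.

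Gene density followed GC content, and here windows with both marks stood nearest to windows with neither. Protein-coding start sites numbered 19.5 per Mb in lamin B1 only windows, 8.96 with both marks, 7.55 with neither and 3.96 with H3K9me3 only, against 8.68 per Mb over all windows. Lamin B1 only exceeded neither on 19 of 19 autosomes and both marks on 18, and H3K9me3 only fell short of neither on 18. The small lead of both marks over neither was reversed on chromosomes 2, 4, 10, 11, 14, 16 and 17. Gene bodies gave the same order, since a protein-coding gene overlapped 74.2% of lamin B1 only windows, 47.6% with both marks, 45.7% with neither and 30.3% with H3K9me3 only. Of windows that held a start site, 36.3% had lamin B1 and 14.1% H3K9me3, and of windows that held none, 18.04% and 24.9%. The labelled lamina-associated domains of these lists were therefore rich in GC and in genes, against the textbook features given above, and are called lamin B1 domains here only because the deposited list is so named.

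**Figure D2:**
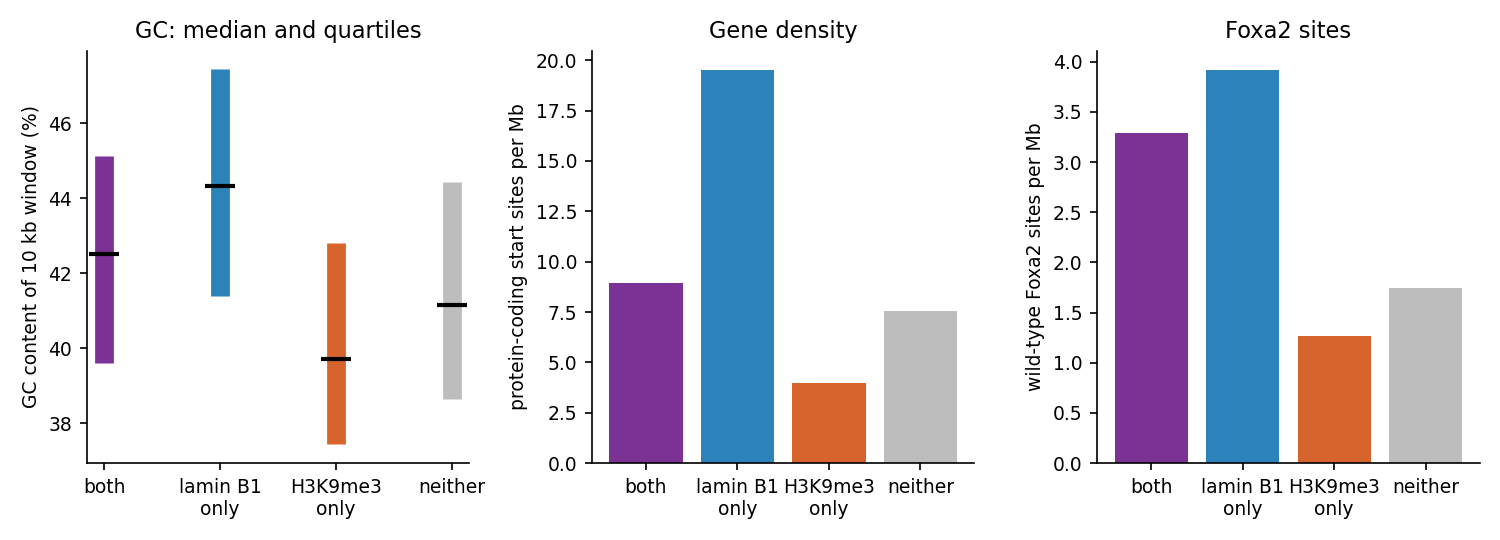
The 4 window classes, with the median (black line) and quartiles (bar) of GC content in percent, protein-coding start sites per Mb, and wild-type Foxa2 sites per Mb, each over all windows of the class and without error bars because lists were merged. Lamin B1 only windows are highest and H3K9me3 only windows lowest in each panel.

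Because the marks leaned to opposite ends of the GC scale, windows were split into 10 bins of equal size by GC content. Lamin B1 went from 7.05% of windows in the lowest bin (median GC 35.7%) to 35.6% in the highest (50.04%), and H3K9me3 from 36.8% to 11.0%. Within bins, H3K9me3 was more frequent with lamin B1 than without it in 9 of 10. In the lowest bin it was present in 41.4% of windows with lamin B1 and 36.4% of those without, in bin 3 in 35.4% and 26.8%, and in bin 5 in 29.4% and 21.9%. In the highest bin the order turned, with 10.2% and 11.4%. Weighted by the number of lamin B1 windows in each bin, the shares were 24.1% with and 20.4% without lamin B1, a difference of 3.64 points in place of 0.07. Weighting left the share with lamin B1 as it was and lowered the share it is compared with. No weighted difference was computed per autosome, so the spread of this value is unknown. The SD of 4.53 points given above is that of unweighted differences of single autosomes.

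**Figure D3:**
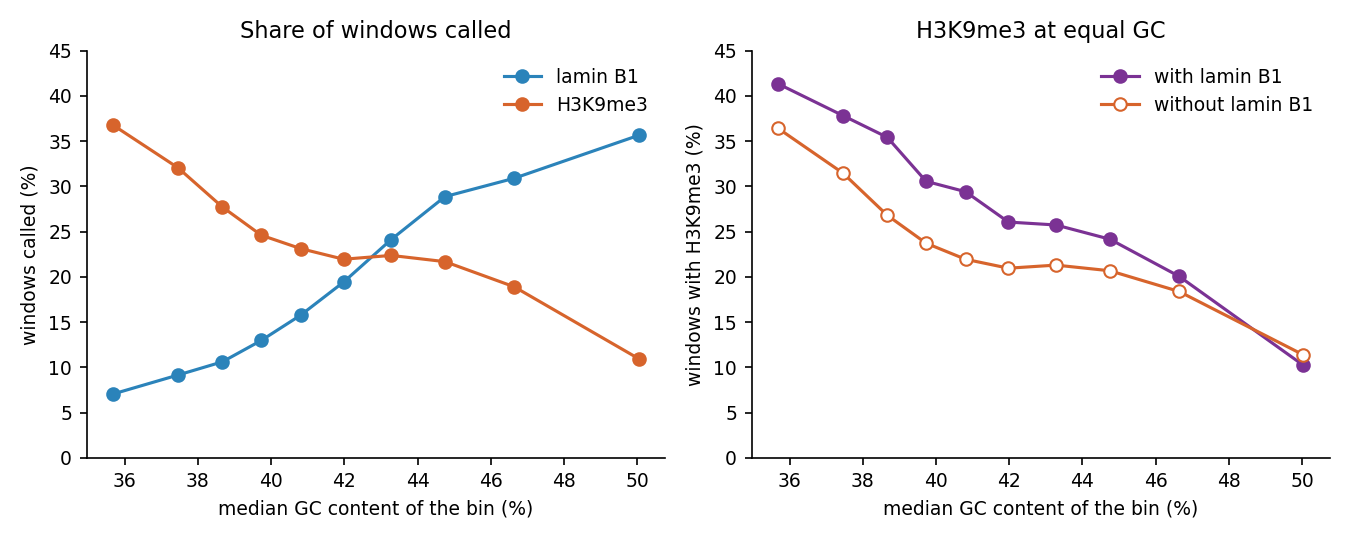
Left, percentage of windows with lamin B1 and with H3K9me3 (y axis) against the median GC content in percent of each of 10 bins of windows (x axis). Right, percentage with H3K9me3 among windows with and without lamin B1, where the lamin B1 line lies above in 9 of 10 bins and the lines cross in the highest.

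Gene density was also compared within bins. H3K9me3 only windows had fewer start sites than windows with neither in 10 of 10 bins, for example 1.64 and 3.23 per Mb in bin 3 and 15.8 and 22.3 per Mb in the highest. Lamin B1 only windows had more than windows with neither in 7 of 10, and the exceptions were the lowest 3, where lamin B1 only held 1.72, 1.54 and 2.07 per Mb and neither held 3.77, 2.66 and 3.23 per Mb. In AT-rich DNA, lamin B1 windows were therefore not richer in genes than unmarked ones. Windows with both marks had fewer start sites than lamin B1 only windows in 8 of 10 bins. They also had fewer than windows with neither up to bin 7, for example 1.33 and 3.23 per Mb in bin 3. From bin 8 upward they had more, with 32.5 and 22.3 per Mb in the highest.

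Position within the domain was examined next. H3K9me3 was present in 30.99% of the outermost 10 kb windows of lamin B1 domains (interval 29.4 to 32.6), in 26.4% at 50 to 100 kb from the edge and in 15.3% at 200 to 300 kb (14.3 to 16.4). Outside the domains the first 10 kb held 27.7%, windows at 50 to 100 kb held 28.2%, and those beyond 1000 kb 22.5%. The share thus declined more toward the inside of domains than away from them. GC content moved with it, from a median of 43.0% in the outermost windows to 44.7% at 200 to 300 kb, and its part in the decline was not tested.

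Domain length moved with this profile, since only long domains reach far from an edge. In domains shorter than 200 kb, H3K9me3 was flat, with 34.2% in the outermost 10 kb and 34.0% at 50 to 100 kb. In domains of 200 to under 500 kb it went from 29.96% in the outermost windows to 18.7% at 150 to 200 kb and 15.3% at 200 to 300 kb. In domains of 500 kb and longer it went from 22.1% to 16.5% and 15.4% at the same distances. Windows at 150 kb and deeper in domains of 200 to under 500 kb came only from the longer of them, so length moved with depth there too. At 50 to 100 kb, which all domains of that group reach, the share was 26.3%. A decline from the edge was thus seen within both groups of longer domains and not in short ones, and the part of length in it was not tested.

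**Figure D4:**
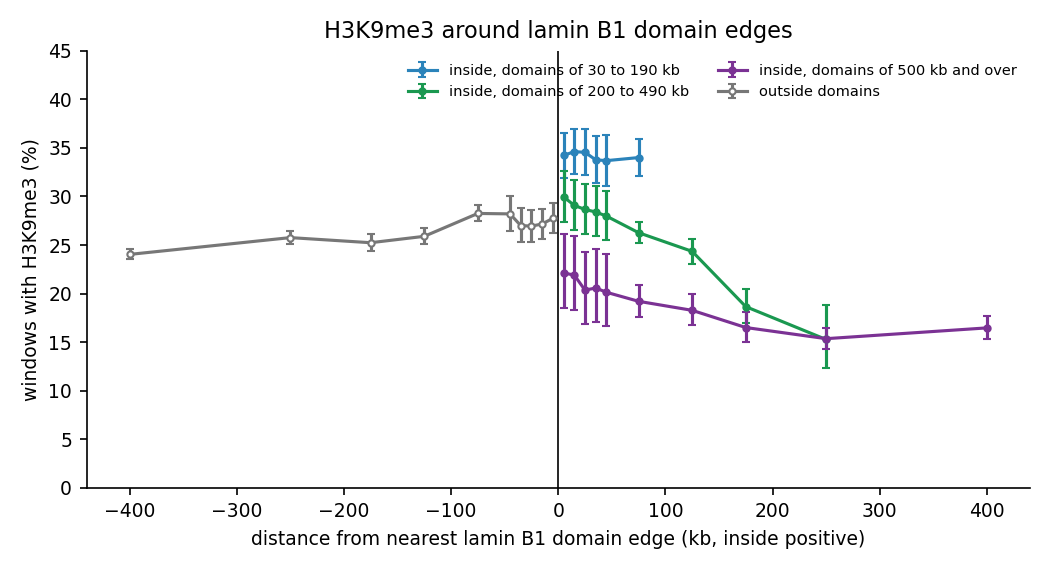
Percentage of windows with H3K9me3 (y axis, bars are 95% Wilson intervals) against distance in kb from the nearest lamin B1 domain edge (x axis, inside positive), for 3 groups of domain length and for windows outside domains. Short domains are flat near 34% and both groups of longer domains decline to about 15% at 200 to 300 kb, a depth that only the longer domains of the middle group reach.

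Measured as relative position, the profile was shallow. Each domain of at least 100 kb was divided by relative depth into 5 equal parts. The outermost part held H3K9me3 in 26.3% of windows and the innermost in 23.4%. For domains of 100 to under 200 kb the values were 33.8% and 33.9%, for those of 200 to under 500 kb 28.7% and 23.7%, and for those of 500 kb and longer 20.6% and 18.4%. In this longest group the lowest share, 14.7%, lay next to the innermost part rather than in it. H3K9me3 in the gaps between domains hardly varied with gap length, from 23.9% in gaps under 100 kb to 26.2% in gaps of 500 to under 1000 kb.

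Exact edges coincided in a small share of domains, but more often than at distances of 200 to 500 kb. Of 1621 lamin B1 domains, 77 (4.75%) started at the same window as an H3K9me3 region, while 31 and 25 had an H3K9me3 start 1 window to the left and right. For ends the numbers were 64 (3.95%), 22 and 26. At distances of 200 to 500 kb, the mean per distance was 20.1 for starts (range 12 to 36) and 20.4 for ends (8 to 35). In 14 cases start and end were both identical. These included 230 kb on chromosome 4 (chr4:147390001-147620000) with the zinc finger genes Zfp982 and Zfp985, 60 kb on the same chromosome with the major urinary protein gene Mup5, 120 kb with the potassium channel gene Kcnj3 and 60 kb with the kinase genes Smok2a and Smok2b. A further one, of 40 kb on chromosome 9, held predicted genes with Gm names, among them Gm10722 and Gm10715.

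Whole domains ranged from free of H3K9me3 to filled with it. Of the 1621 domains, 778 (48.0%, interval 45.6 to 50.4) held no H3K9me3 window, 388 (23.9%) were covered under 50%, 260 (16.0%) from 50% to under 100%, and 195 (12.0%, 10.5 to 13.7) fully. Mean GC content was 44.0% ± 3.86 (SD over 778 domains) in free domains and 40.1% ± 2.98 (SD over 195) in filled ones. Start sites numbered 20.7, 17.1, 9.69 and 5.62 per Mb in the 4 groups, and 84.4% of free domains but 40.5% of filled ones held at least 1. Filled domains were short, with a median of 120 kb against 180 kb for free ones and 200 kb for all. None of the 226 domains of 500 kb and longer was filled, which allows a share of up to 1.33%, against 26.3% of the 224 domains under 100 kb. Domains with H3K9me3 throughout were thus shorter, poorer in GC and poorer in genes than domains without it.

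Seen from the other list, most H3K9me3 lay away from lamin B1. Of 2781 H3K9me3 regions, 1864 (67.03%, interval 65.3 to 68.7) lay outside all domains, 635 (22.8%) crossed an edge and 282 (10.1%, 9.07 to 11.3) lay wholly inside one. Regions wholly inside had a mean GC content of 43.8% ± 3.33 (SD over 282), those that crossed 42.0% ± 3.58 (SD over 635) and those outside 40.2% ± 3.56 (SD over 1864). They held 10.9, 5.75 and 3.93 start sites per Mb. The crossing regions were the longest, with a median of 210 kb against 110 kb inside and 140 kb outside. A longer region has more room to meet an edge, so this order of lengths is partly set by the grouping.

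The longest runs of each class are given as examples, and they did not all follow the order of the class medians in GC content. The longest run with both marks measured 830 kb (chr14:117870001-118700000), with a GC content of 44.9%, and held 5 protein-coding starts, among them Dct, which acts in melanin synthesis, Sox21, a developmental transcription factor, Tgds and Gpr180. The next, of 760 kb on chromosome 3 (chr3:138470001-139230000), had a GC content of 42.7% and held Metap1, Eif4e, the cap-binding translation factor, Tspan5, Rap1gds1 and Stpg2. A run of the same length on chromosome 8 (chr8:47880001-48640000) had 43.6% and held Wwc2 and Dctd, a deoxycytidylate deaminase gene. Runs with both marks were short, with a median of 90 kb over 1017 runs, compared with 140 kb over 1632 runs of lamin B1 only and 130 kb over 2629 runs of H3K9me3 only. As an overlap, a run with both marks cannot be longer than the domain or the region that holds it.

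The longest run with lamin B1 only measured 2120 kb (chr11:85310001-87430000), with a GC content of 42.7%, and held 24 protein-coding starts, including the T-box factors Tbx2 and Tbx4, the mediator subunit gene Med13, the clathrin gene Cltc shown above and the DNA repair gene Rad51c. The next, 1720 kb on chromosome 3 (chr3:88920001-90640000), had 46.9% and held 68, including Pklr, the pyruvate kinase of liver and red cells, and Adar, an RNA-editing enzyme. The third, 1690 kb on chromosome 10 (chr10:95390001-97080000), had 42.1% and held 9, including Socs2, an inhibitor of growth hormone signalling, and Btg1. Those on chromosomes 11 and 10 were thus poorer in GC than the longest run with both marks. The 3 longest runs with H3K9me3 only held few genes and had a GC content of 40.3%, 39.1% and 37.7%. The longest, 2250 kb on chromosome 3 (chr3:146630001-148880000), held 4 starts, among them Prkacb, a catalytic subunit of protein kinase A, and Ttll7. The others, 1490 kb (chr3:154670001-156160000) with Tnni3k, Fpgt and Lrriq3, and 1460 kb (chr3:139400001-140860000) with no protein-coding start, lay on the same chromosome.

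Gene classes were assigned by name and by the window of the start site. Over all 20805 protein-coding genes, 4.84% started in windows with both marks, 33.2% with lamin B1 only, 8.81% with H3K9me3 only and 53.2% with neither, so 38.0% lay under lamin B1 and 13.6% under H3K9me3. Over all 51217 annotated genes the shares were 5.29%, 24.8%, 12.9% and 57.0%, with 30.1% under lamin B1 and 18.2% under H3K9me3. These are the backgrounds for the counts below. Genes of a cluster share regions and are not independent, and several families named here are multi-copy, where uniquely aligned reads can be few. The part of alignment in their shares was not tested.

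Zinc finger genes, many of which encode DNA-binding repressors that recruit Trim28, were the large class that most often carried both marks. Of 415 genes named Zfp, Zscan or Zkscan, 78 (18.8%) started in windows with both marks, 95 with lamin B1 only, 99 with H3K9me3 only and 143 with neither. H3K9me3 covered 42.7% of them (interval 38.0 to 47.5) and lamin B1 41.7% (37.0 to 46.5). The 78 lay in 36 lamin B1 domains, with 28 of the 105 zinc finger genes of chromosome 7, 11 of 41 on chromosome 13 and 8 of 47 on chromosome 17. The start windows of the class had a median GC content of 44.2%, below the 45.6% of all protein-coding genes. In the stretch of chromosome 4 that the study drew as a track, 34 of 103 windows held both marks and 60 neither, and of 10 zinc finger genes there Zfp982, Zfp985, Zfp984 and Zfp933 started under both marks and Zfp989, Zfp991, Zfp988, Zfp978, Zfp979 and Zfp534 under neither.

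The Hox genes, transcription factors that pattern the body axis, split by cluster. All 11 Hoxa and all 9 Hoxd genes started in windows with both marks, within 1 domain each. In the Hoxb cluster, Hoxb3 to Hoxb9 (7 genes) lay under lamin B1 only, Hoxb13 under H3K9me3 only, and Hoxb1 and Hoxb2 under neither. In the Hoxc cluster, Hoxc4, Hoxc6 and Hoxc8 lay under lamin B1 only and the other 6 genes under neither. With 20 of 39 genes (51.3%) under both marks, Hox had the highest such share of the classes, from 2 loci. The median GC content of their start windows, 50.3%, was above the 45.9% of all start windows with both marks.

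Clustered protocadherins, neuronal adhesion proteins encoded in a row on chromosome 18, carried H3K9me3 at 55 of 57 genes (96.5%). The mark divided with lamin B1 by subfamily. All 21 Pcdhg genes held both marks, within 1 domain, while all 22 Pcdhb genes and 12 of 14 Pcdha genes held H3K9me3 only. The change of lamin B1 along the row thus lay between the beta and gamma genes.

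Olfactory and vomeronasal receptors were among the classes with the least lamin B1, as were keratin-associated protein genes (1 of 57). Of 1128 olfactory receptor genes 35 (3.10%, interval 2.24 to 4.28) started under lamin B1, against 38.0% of all protein-coding genes, and 285 (25.3%) under H3K9me3. The H3K9me3 share differed by chromosome, with 148 of 294 genes under H3K9me3 only on chromosome 2, 22 of 244 on chromosome 7 and 0 of 66 on chromosome 19, which allows up to 4.55%. H3K9me3 over all windows of these chromosomes differed too, at 27.0%, 10.1% and 3.50%. None of 327 vomeronasal receptor genes, which encode pheromone receptors, lay under lamin B1, which allows up to 0.917%, and 43 (13.1%) lay under H3K9me3. The start windows of both families were AT-rich, with a median GC content of 37.4% and 38.0%. Over all windows of like GC content (bin 2, median 37.5%), lamin B1 was present in 9.16% and H3K9me3 in 32.1%. The part of GC content in the shares of these families was not tested.

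Housekeeping and transporter families, like protein-coding genes in general (33.2% and 53.2%), lay mostly under lamin B1 only or under neither mark. Of 92 genes with Rpl or Rps names (8 of them S6 kinase genes, the others mostly ribosomal proteins) 43 were in lamin B1 only windows, for example Rpl7, Rpl31 and Rpl12, and 8 in H3K9me3 windows of either kind. Of 49 proteasome genes 24 were in lamin B1 only windows, among them Psmd5, Psmb7 and Psmb4, and of 44 genes of mitochondrial complex I 21, among them Ndufb3 and Ndufs1. Solute carriers, the membrane transporters, had 140 of 372 (37.6%) there, close to the background of 33.2%. The median GC content of the start windows of these 4 families was 45.5% to 47.2%. The lamin B1 intervals of the ribosomal (41.0 to 61.1) and complex I genes (40.1 to 68.3) lay above the background of 38.0%, while those of the proteasome genes (37.5 to 64.4) and solute carriers (36.8 to 46.7) included it. Their H3K9me3 shares, 8.16% to 10.2%, had intervals that included the background of 13.6% in all 4 families.

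Families of the liver's own products leaned to windows with neither mark. This held for 22 of 25 apolipoprotein genes, such as Apoc1, Apoc2 and Apoc4, for 46 of 60 serpins, 19 of 22 major urinary protein genes and 18 of 25 complement and coagulation genes, such as F5, Fga and Fgg, against 53.2% of all protein-coding genes. Cytochrome P450 genes had 64 of 98 there, including Cyp7a1, the rate-limiting enzyme of bile acid synthesis, and Cyp27a1, with 18 under H3K9me3 only. Keratin genes (45 of 53) and keratin-associated protein genes (53 of 57), which are not liver products, lay there at similar shares. Of the 67 clustered histone genes 24 were in lamin B1 only windows, within 4 domains, and 37 under neither. Beta-defensin genes (31 of 42, 73.8%) and taste receptor genes (28 of 38, 73.7%) also lay above the 72.0% of complement and coagulation genes. The lean to neither mark was thus not particular to liver products. Of the remaining families, neither mark held 27 of 40 genes for glucuronidation and sulfation, 26 of 43 collagen genes and 15 of 28 mediator genes.

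**Figure D5:**
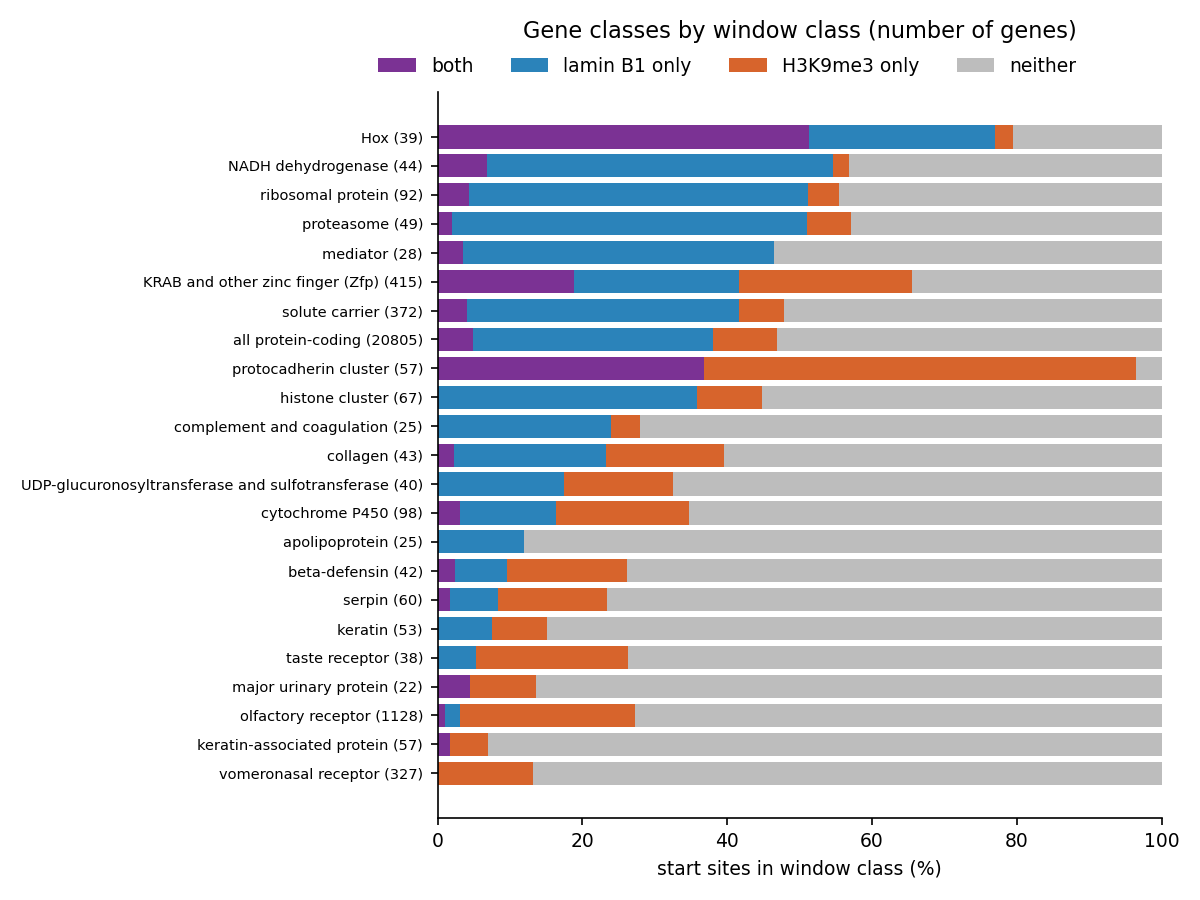
Percentage of protein-coding start sites in each window class (x axis, stacked to 100) for each gene class (y axis, with its number of genes), ordered by the share under lamin B1. Hox, protocadherin and zinc finger genes hold the largest shares with both marks, 51.3%, 36.8% and 18.8%, against 4.84% of all protein-coding genes.

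A panel of 45 genes of liver identity, metabolism and nuclear organisation was read gene by gene. Lamin B1 only held 21 of them, neither mark 21, both marks 2 and H3K9me3 alone 1. Among hepatocyte transcription factors, Hnf4a, Foxa1, Foxa3 and Cebpa started under lamin B1 only, in domains of 280 to 790 kb, Onecut1 under both marks, and Foxa2 under neither. Onecut1 lay in a domain of 400 kb (chr9:74800001-75200000) and in an H3K9me3 region of 210 kb that began at the same base. The secreted proteins differed from the factors, since Alb, Afp, Apoa1, Apob, Fgb, Trf and Serpina1a were under neither and of 8 genes only Ttr, which encodes transthyretin, lay under lamin B1.

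The nuclear receptors were divided. Nr1h3 (LXR alpha), Nr1i2 (PXR), Nr1i3 (CAR) and Pparg lay under lamin B1 only, in domains of 840 to 1310 kb, while Rxra and Nr1h4 (FXR) lay under neither. Ppara, the receptor that drives fatty acid oxidation, was the 1 panel gene under H3K9me3 only, in a region of 110 kb (chr15:85720001-85830000) whose window at the start site had a GC content of 50.7%. Among metabolic genes, Cpt1a and G6pc lay under lamin B1 only and Fasn, Scd1, Pck1 and Cyp7a1 under neither.

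Genes that act on the marks themselves were also placed. Of 10 genes of H3K9 methylation, Ehmt1, Ehmt2, Trim28, Cbx5, Cbx1, Kdm4c and Hdac3 lay under lamin B1 only and Setdb1, Suv39h2 and Cbx3 under neither, and none lay under H3K9me3, a list too short to set against the background of 13.6%. Of the lamina genes, Lmna and Banf1 lay under lamin B1 only, Tmpo under both marks, and Lmnb1, which encodes lamin B1, with Lmnb2, Lbr and Zmpste24 under neither. Emd, on chromosome X, was outside the windows compared.

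The other lists of the series gave readouts that did not enter the classes. Wild-type Foxa2 sites of livers aged 12 weeks numbered 3.91 per Mb in lamin B1 only windows (1385 sites), 3.29 with both marks (369), 1.75 with neither (2567) and 1.27 with H3K9me3 only (587). Lamin B1 only windows exceeded those with neither on 19 of 19 autosomes and in 9 of 10 bins of GC content, and windows with both marks exceeded H3K9me3 only on 17 autosomes. Foxa2 sites were thus denser where young lamin B1 was called, with or without H3K9me3.

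In old livers lamin B1 was called in 38.8% of the same windows and H3K9me3 in 25.7%. Lamin B1 was called again in 75.6% of lamin B1 only windows and in 57.5% of windows with both marks, compared with 32.8% of windows with neither and 25.2% of those with H3K9me3 only. Lamin B1 only exceeded both marks on 16 of 19 autosomes, and H3K9me3 only fell below neither on 12. Old lamin B1 also moved steeply with GC content, but within bins lamin B1 only windows were above those with both marks in 9 of 10, for example 50.2% and 35.3% in bin 5 and 99.8% and 98.9% in the highest. Young lamin B1 windows without H3K9me3 were thus the more often called again. The order of H3K9me3 only and neither was not kept within bins. H3K9me3 only lay below neither in the lowest bins and above it from bin 5 upward, for example 56.1% and 47.3% in bin 7.

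H3K9me3 in old livers was called in 53.8% of windows with both marks, 39.5% with H3K9me3 only, 21.9% with lamin B1 only and 20.1% with neither. The higher share with both marks than with H3K9me3 only held on 16 of 19 autosomes but in only 5 of 10 bins of GC content, with 10.4% and 4.44% in the lowest bin and 83.3% and 92.7% in the highest. Lamin B1 only lay below neither within every bin above the lowest, for example 22.4% and 34.4% in bin 8. Of windows with both marks, 41.6% held both again and 30.3% neither, and of H3K9me3 only windows 56.6% held neither. In the old lists, H3K9me3 was present in 45.7% of windows with lamin B1 (interval 45.3 to 46.0) and 13.1% of those without, a ratio of 3.49 where the young lists gave 1.00. Both old marks rose with GC content, whereas young H3K9me3 fell from 36.8% of windows in the lowest bin to 11.0% in the highest. In windows with neither young mark, old lamin B1 went from 0.268% to 95.4% and old H3K9me3 from 1.19% to 52.9%. The ratio of 3.49 was not computed within bins. Young H3K9me3 was present in 19.5% of old lamin B1 windows and 26.9% of the others, and old H3K9me3 in 29.6% of young lamin B1 windows and 24.8% of the others. The old H3K9me3 list, with 2492 regions on the autosomes, also holds fewer than the study counts for old livers. By the study's pooled read numbers, young livers had fewer H3K9me3 reads and more lamin B1 reads than old livers. The part of list, depth and GC content in the difference between the ages was not tested. The difference itself was not tested either, because each list merges its replicates.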

How the data were processed

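ChIP-Seq of lamin B1 and H3K9me3 in 3-month livers was analysed from the deposited lists of called regions, which hold genome positions with no count or score, so depth per replicate is unknown. The authors used BWA for alignment to mm10, discarded duplicates (Picard) and reads without a unique position, and pooled the replicates before calling. Epic, set to 10 kb windows and a gap size of 3, called the lamin B1 domains, and the submitters' notes also name SICER. The caller of H3K9me3 is not given in the sources used here, and the deposited young and old H3K9me3 lists each hold fewer regions than the study counts. The study drew a stretch of chromosome 15 as an example of young-specific lamin B1. In the young lists all 51 windows there held neither mark. A chromosome 10 stretch drawn likewise held lamin B1 only in 65 of 115 windows and both marks in 49. Of 12 windows in the chromosome 8 stretch drawn, 5 held both marks, 3 H3K9me3 only and 4 neither. The 3 windows of the chromosome 5 stretch held lamin B1 only. The reason for the chromosome 15 mismatch was not tested.

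Starts and ends were taken as inclusive, and every region fell on the 10 kb grid. The shortest region measured 30 kb and the shortest gap within a list 40 kb. Windows with under 5000 known bases (6688) were left out. Sequence was GRCm38.p6, genes were GENCODE vM21 and promoters the RefSeq table. Shares have Wilson intervals (95%), and 3 counts set the limit where 0 were seen. Code was tested on simulated data. Python 3.11.15, numpy 2.4.6, pandas 2.3.3, scipy 1.17.1 and matplotlib 3.10.9 were used.

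Named genes were those in the 3 longest runs of each class, a panel of 45 genes, the regions the study drew as tracks, and up to 3 examples of each gene class, the first by position in the window class that held most of it. Counts and clusters outside this rule were named after their values were seen. The comparison, gene classes and panel were chosen with earlier results of these data known. Alternatives changed the windows, the minimum length of regions, the gene sets, the overlap rule and the autosomes. H3K9me2 was not analysed here. Some genes of these lists are counted in their group but not reported here by name.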

Additional observations from a re-analysis of the deposited data

How the results depend on the processing

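Of 84 alternative values for 9 results, 68 stayed within the spread (the counting interval for shares, the SD over 19 autosomes for GC content and gene density), and 16 moved outside it. The difference in H3K9me3 with and without lamin B1 took either sign, and no other difference or ratio changed direction. That difference, 0.07 points, was 0.88 with assembly gaps included, 1.961 with chromosome X added, -0.48 with domains of at least 100 kb, -0.28 with H3K9me3 regions of at least 100 kb, -0.11 without regions identical in both lists, from -0.42 to 0.87 with 1 autosome left out, and 3.64 when weighted over bins of GC content. The ratio of start sites in lamin B1 only over neither, 2.58, was 1.80 with all annotated genes and 1.62 with any part of the gene body. That of both marks over lamin B1 only, 0.46, was 0.67 and 0.64, counted as within the spread because the SD over single autosomes was 0.23. The share of H3K9me3 regions inside a domain, 10.1%, was 21.7% where 50% of the region sufficed and 7.77% with H3K9me3 regions of at least 100 kb, a setting chosen after seeing the data. Under that setting the H3K9me3 share of the outermost 10 kb minus that at 100 kb or more inside was 10.8 points and the lead of lamin B1 only over both in old lamin B1 19.5 points, in place of 12.8 and 18.1. The former was 9.60 points in domains of at least 200 kb, and the latter 19.99 points in 100 kb windows and 16.7 at the lowest with 1 autosome left out. Zinc finger genes with both marks made up 15.2% with domains of at least 100 kb. Leaving out the 14 regions identical in both lists, also added later, moved no value outside the spread. The cause of these shifts was not tested. A minimum of 20 kb for H3K9me3 regions removed none, so its values, counted among the 68, could not move and say nothing about stability. No paired analysis was possible because the lists merge their replicates, and no replicate could be left out for the same reason. No counts lie behind the calls, so sensitivity to depth is unknown.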

Other observations

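Non-coding genes divided differently from protein-coding ones. Of 5209 lincRNA genes 23.1% started under lamin B1 and 25.5% under H3K9me3, and of 8920 processed pseudogenes, the reverse-transcribed copies of messenger RNAs, 21.2% and 25.3%. Antisense genes (2913) lay at 37.1% and 16.7%, near the protein-coding values of 38.0% and 13.6%, and miRNA genes (2053) at 31.4% and 18.2%. The variable segments of immune receptors had few calls of either kind. Of 218 immunoglobulin variable segments 199 (91.3%) and of 144 T-cell receptor variable segments all 144 started in windows with neither mark. For the T-cell receptor segments a count of 0 allows up to 2.08% if each is counted alone. They lie in clusters and shared 119 windows, so this limit is too low. Unprocessed pseudogenes, copies made by duplication, were at 83.2% with neither mark.

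Chromosome X held 2 lamin B1 domains and 2 H3K9me3 regions, and chromosome Y held 1 of each. All 3 pairs had the same start and end in both lists. The X domains together measured 80 kb, and lamin B1 covered 0.0489% of the windows of that chromosome, against 19.5% of autosomal windows. The 10 Mb next to the first known base of each autosome, on the side of the centromere, had 15.6% of windows with lamin B1, 18.6% with H3K9me3 and 3.05% with both, and the last 10 Mb had 21.9%, 27.1% and 6.54%, against 19.6%, 24.2% and 4.66% in between. Median GC content was 41.0%, 44.1% and 41.2% in these parts.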
